A study of Homo sapiens with 8 samples.

Results

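The cytosolic ribosomal protein genes were examined as a group of promoters that every growing cell keeps in use. The group was defined by gene name alone: coding genes of the GENCODE annotation of GRCh37 called RPL or RPS plus digits, with an optional A, L or X, together with RPLP0, RPLP1, RPLP2 and RPSA, outside the Y chromosome. It held 81 of 20111 coding genes, and 78 of them had a transcript start inside a region of acetylated chromatin. FAU and RACK1, which also supply ribosomal proteins, carry other names and were counted with other translation genes, while RPL36AL, RPL26L1, RPL22L1 and RPL7L1 have names that the definition does not cover.

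H3K27ac, histone H3 acetylated at lysine 27 and a mark of active promoters and enhancers, was mapped by chromatin immunoprecipitation and sequencing (ChIP-seq) in A549, a line from a human lung adenocarcinoma that has a KEAP1 mutation and keeps the transcription factor NRF2 active. The control group was 3 libraries from A549 cells given control siRNA, and the NRF2 group was 3 libraries from A549 cells given siRNA against NRF2 for 48 h, of which replicate 1 received siRNA 28 and the other two received siRNA 30. All libraries came from this single line, and the knockdown was transient. The lists held 27941, 34747 and 41571 peaks in control replicates 1, 2 and 3 and 23885, 34986 and 39108 peaks in NRF2 siRNA replicates 1, 2 and 3. They hold no read counts, so no interval that needs counts is given. By the read totals in the study's reporting summary, which were not used in any fit, both replicate 1 libraries had far fewer mapped reads than the rest, which lay close together. Of the epithelial markers, KRT8, KRT18, EPCAM and CDH1 were called in all 6 libraries and KRT19 in 0, and the 4 lung epithelium markers (NKX2-1, SFTPB, SFTPC, SFTPA1) were called in 0. Among markers of other cells, CD14 (1 of 4 blood markers) and ACTA2 (1 of 4 fibroblast and muscle markers) were called in all 6, COL1A1 in 2, and both endothelial markers in the annotation in 0. The promoter of NFE2L2, the gene for NRF2, ranked above 94.6% to 98.2% of the peaks of its own list in the 6 libraries. The siRNA acts on the RNA, so this promoter is no check of the knockdown.

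A ribosome is built from a small and a large subunit, and the RPS and RPL genes encode the proteins of each, which are needed in matched amounts. The transcripts of these genes typically begin at a C within a run of pyrimidines, the terminal pyrimidine tract, through which their translation follows growth signals such as mTOR. The genes are short, highly transcribed in nearly every cell type, and many carry small nucleolar RNAs (snoRNAs) in their introns.

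The promoters the results turn on are shown first, as read from the GRCh37 sequence at the start of the canonical GENCODE transcript: 60 bases before the start and the first 20 transcribed bases of exon 1, 5′ to 3′ on the strand of the gene. Capitals mark the unbroken run of pyrimidines that holds the start site, and a line without capitals has a purine at its first transcribed base. The first 5 lines are the genes with the highest mean H3K27ac rank among the ribosomal protein genes called in all 6 libraries. The lines after them are the 5 with the lowest among the same genes and then RPL27. By the score compared further below, RPL27 had the largest difference upward with NRF2 siRNA and RPL4, in the first set, the largest downward.
RPL23A, chr17:27046943-27047022, plus strand: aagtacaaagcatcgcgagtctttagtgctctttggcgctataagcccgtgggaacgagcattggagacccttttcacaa
RPL4, chr15:66797174-66797253, minus strand: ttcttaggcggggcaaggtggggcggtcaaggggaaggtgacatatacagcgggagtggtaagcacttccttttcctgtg
RPL10, chrX:153626658-153626737, plus strand: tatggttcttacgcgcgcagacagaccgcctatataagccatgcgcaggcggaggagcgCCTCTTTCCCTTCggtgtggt
RPS12, chr6:133135648-133135727, plus strand: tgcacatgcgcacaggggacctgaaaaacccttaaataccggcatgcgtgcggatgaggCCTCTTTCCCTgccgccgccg
RPS26, chr12:56435642-56435721, plus strand: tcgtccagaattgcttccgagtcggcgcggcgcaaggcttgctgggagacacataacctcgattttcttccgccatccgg
RPL39L, chr3:186857265-186857344, minus strand: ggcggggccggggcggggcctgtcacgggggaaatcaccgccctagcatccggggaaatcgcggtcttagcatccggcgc
RPL14, chr3:40498770-40498849, plus strand: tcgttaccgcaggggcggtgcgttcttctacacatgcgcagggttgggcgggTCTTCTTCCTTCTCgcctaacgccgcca
RPS10, chr6:34393827-34393906, minus strand: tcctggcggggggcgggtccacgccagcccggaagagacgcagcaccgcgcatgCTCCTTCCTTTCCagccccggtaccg
RPS4X, chrX:71497079-71497158, minus strand: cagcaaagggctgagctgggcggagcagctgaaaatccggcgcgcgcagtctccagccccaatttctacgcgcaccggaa
RPL29, chr3:52029892-52029971, minus strand: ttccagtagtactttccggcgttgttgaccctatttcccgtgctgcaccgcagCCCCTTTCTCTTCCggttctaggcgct
RPL27, chr17:41150376-41150455, plus strand: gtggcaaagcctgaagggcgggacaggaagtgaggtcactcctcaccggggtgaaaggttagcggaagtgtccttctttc

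Both kinds of annotated start occurred at both ends of the acetylation range. The kind rests on the exact annotated first base. At RPL23A, RPL4, RPS26 and RPL27 that base is a purine, yet a run of pyrimidines follows within the printed transcribed bases. Whether transcripts in A549 begin at the annotated base was not tested. RPL10 and RPS12 among the highest carried runs of 13 and 11 pyrimidines, as did RPL14, RPS10 and RPL29 among the lowest with runs of 14, 13 and 14. Over the 81 genes, 58 (71.6%) had a C at the start followed by 4 pyrimidines, against 912 of 19832 coding promoters (4.6%). The median run holding the start was 11 bases in ribosomal protein genes and 0 in all coding genes. The 56 genes with such a start and a region in all 6 libraries had a median rank of 73.3 percentiles, and the 18 without had 69.1.

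Letters of known promoter elements were counted in a wider window, from 250 bases before the start to the first 50 transcribed bases, in either orientation unless stated. The ETS factor letters CCGGAAG were present in 34.6% of ribosomal protein promoters and 14.1% of all coding promoters. The YY1 letters AAGATGGC were present in 12.3% and 4.07%. Pieces of the pyrimidine tract were counted on the sense strand and can overlap with one another and with the start tract. The letters CTTTCC were present in 39.5% of ribosomal protein promoters and 13.8% of all. The shares for CCTTTC were 29.6% and 11.8%. For the third piece, CTCTTT, they were 34.6% and 9.8%. By contrast, the TATA box letters TATAAA (8.64% against 9.65%) and the SP factor letters GGGCGG (61.7% against 61.4%) were present at similar shares. The core of the antioxidant response element through which NRF2 acts, TGACNNNGC, was in 8 of the 81 windows, 9.88% against 14.0% of all. A match is a description of letters only, and no test was run on these shares.

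**Figure D1:**
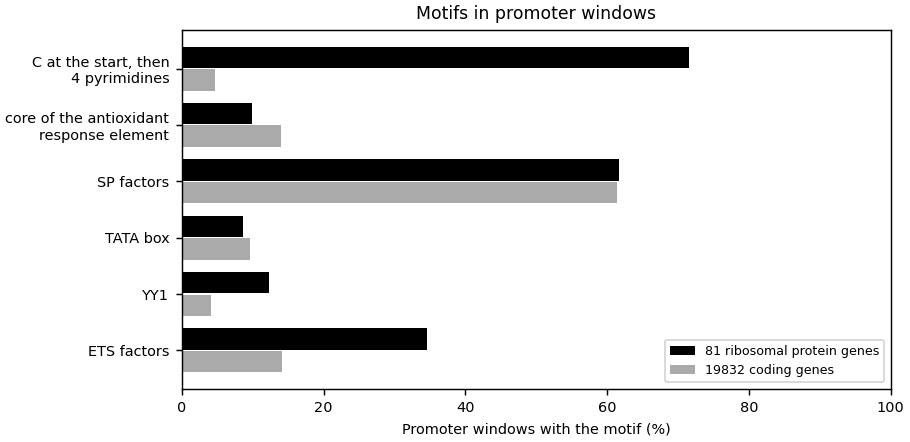
Percent of promoter windows that hold each set of letters, for 81 ribosomal protein genes (black bars) and 19832 coding genes (grey bars), on an axis from 0 to 100%. The bars differ most for a C start followed by 4 pyrimidines, 71.6% against 4.6%, and lie close together for the SP factor letters, 61.7% against 61.4%.

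To ask whether these promoters were marked in every library, peaks of the 6 lists were merged wherever they overlapped, and each gene was given the merged region with most of its transcript starts. The 78 genes lay in 78 separate regions, so no 2 ribosomal protein genes shared a region. All 3 control libraries called 78 genes, and NRF2 siRNA replicates 1, 2 and 3 called 74, 78 and 78. Thus 74 of 81 genes (91.4%) were called in all 6 libraries, against 39.2% of all coding genes.

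The 4 genes called in 5 libraries were RPL11, RPL36, RPS7 and RPS15, and each was missing only in NRF2 siRNA replicate 1, the shortest list. This library was also the missing one for 1070 of the 1352 coding start regions called in 5 libraries (79.1%). Where called, these 4 promoters had low to middling ranks. RPL11, whose protein forms the 5S ribonucleoprotein with that of RPL5, ranked at 40.7, 27.6 and 52.1 percentiles in the controls and at 62.1 and 51.9 in NRF2 siRNA replicates 2 and 3. The other 3 genes lay between 24.1 (RPS15, control replicate 1) and 68.6 percentiles (RPS15, NRF2 siRNA replicate 2).

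RPL10L and RPL3L had no acetylated start in any library. They are paralogues known to be expressed mainly in testis and in muscle, and their nearest peak lay 59794 to 78950 bp and 4794 to 8674 bp away.

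A stricter limit changed the calls in the shorter lists most. At a q-value of at most 1e-05 the controls called 55, 65 and 78 ribosomal protein genes and the NRF2 siRNA libraries 34, 68 and 74, and 32 genes were called in all 6. These were 67.9%, 80.2% and 96.3% of the members in the controls and 42.0%, 84.0% and 91.4% with NRF2 siRNA, beside 27.2%, 36.3% and 51.0% and 16.2%, 39.0% and 44.4% of all coding genes. In both sets the lowest number was in NRF2 siRNA replicate 1 and the next lowest in control replicate 1, the lists with the fewest peaks.

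Each region was placed within its own list: its percentile is the percent of that library's peaks with a lower fold enrichment than the highest peak of the region. A percentile still varies with list length, and the median over all coding start regions called in all 6 libraries ran from 62.2 in the shortest list to 81.4 in the longest. Over the 74 regions called in all 6 libraries the median of the mean percentile was 72.4 (interquartile range 63.1 to 82.8). The median over all coding start regions called in all 6 was 70.3 (57.4 to 82.9), so ribosomal protein promoters were in the middle of the acetylated promoters and not at their top. Within single libraries the members ran from 6.19 to 93.8 percentiles in NRF2 siRNA replicate 1 and from 51.4 to 98.3 in control replicate 3.

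**Figure D2:**
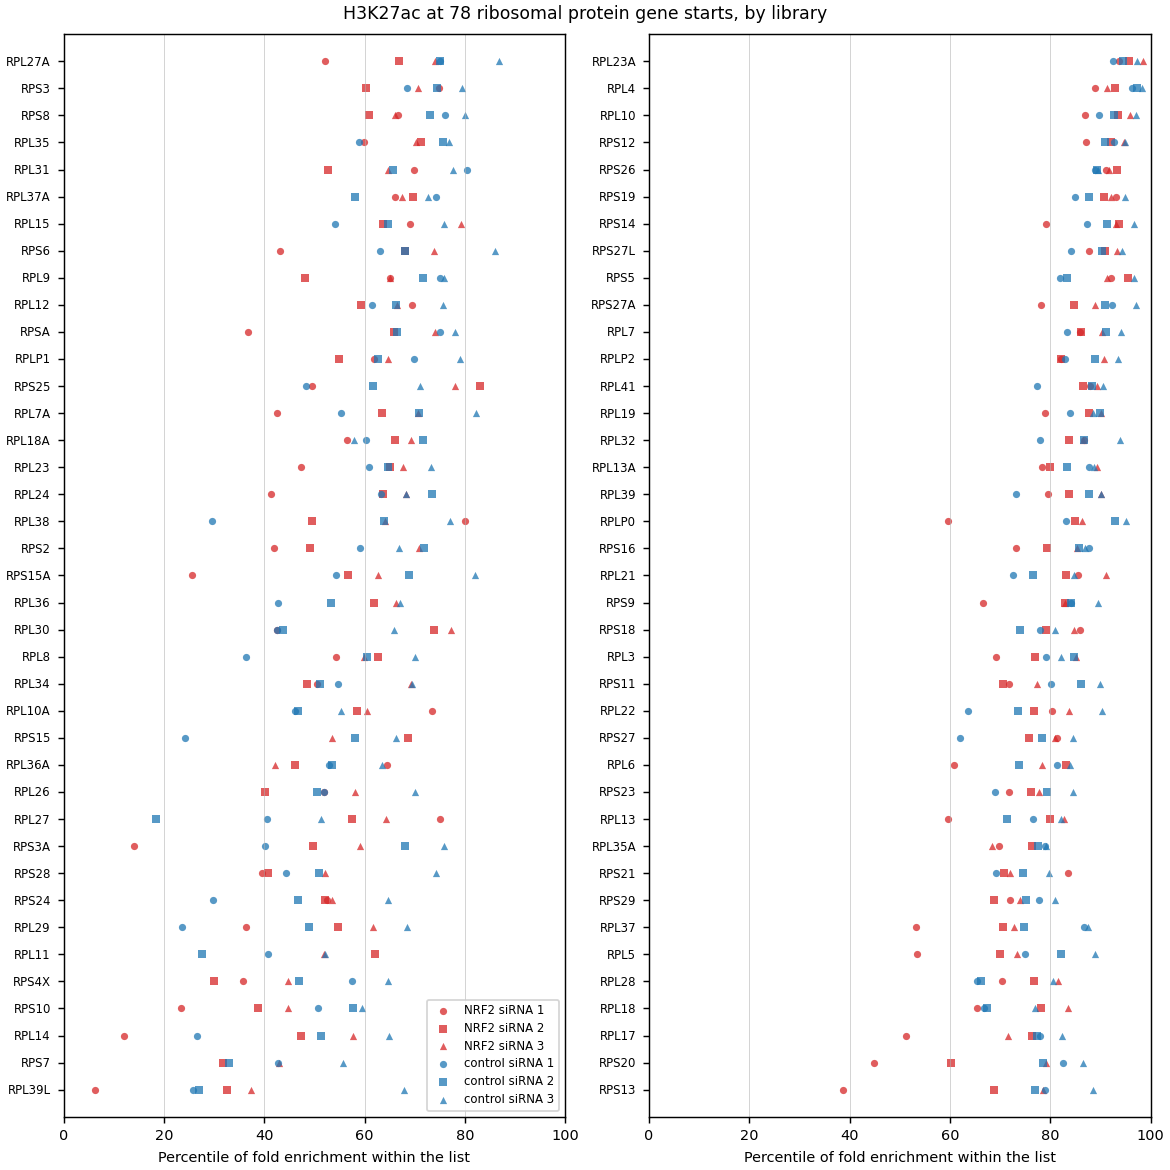
Percentile of fold enrichment within its own list (x axis, 0 to 100) for the start region of each of 78 ribosomal protein genes, ordered by mean, with 1 point per library that called it (blue, control siRNA; red, NRF2 siRNA; circle, square and triangle for replicates 1, 2 and 3). The points of RPL23A and RPS26 lie within a few percentiles of each other, while those of RPL39L, RPL14 and RPS3A are spread over more than 50.

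RPL23A, which encodes a protein beside the exit tunnel of the large subunit, had the highest mean rank. It ranked at 92.5, 94.4 and 97.2 percentiles in control replicates 1, 2 and 3 and at 93.8, 95.6 and 98.5 in NRF2 siRNA replicates 1, 2 and 3. Its region (chr17:27043778-27056846) also holds the starts of NEK8, RAB34 and TLCD1, so the rank belongs to the whole region. RPL10, whose protein joins the large subunit late in its assembly, ranked at 89.8, 92.6 and 97.04 in the controls and at 86.9, 93.4 and 95.8 with NRF2 siRNA. The 2 groups overlapped at both genes.

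The highest small subunit genes were RPS12 and RPS26. RPS12 ranked at 92.7, 90.9 and 94.9 percentiles in the controls and at 87.1, 92.1 and 94.7 with NRF2 siRNA, and shares its region with the start of SLC18B1. RPS26, a gene mutated in Diamond-Blackfan anaemia, had the smallest spread of all members (mean 90.6 ± 1.68 percentiles, SD, n = 6 libraries). It ranked at 88.9, 89.3 and 89.5 in the controls and at 91.1, 93.2 and 91.6 with NRF2 siRNA. The RPS26 groups did not overlap, with NRF2 siRNA the higher. RPS19, the gene most often mutated in the same anaemia, ranked at 85.0, 87.7 and 94.8 in the controls and at 93.0, 90.6 and 92.1 with NRF2 siRNA, and its groups overlapped.

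The lowest member called in all 6 libraries was RPL39L, a paralogue of RPL39 known from testis. It ranked at 25.9, 27.02 and 67.8 percentiles in the controls and at 6.19, 32.7 and 37.4 with NRF2 siRNA. RPL14 ranked at 26.7, 51.3 and 64.9 in the controls and at 11.97, 47.4 and 57.6 with NRF2 siRNA. RPL29 ranked at 23.6, 48.9 and 68.4 in the controls and at 36.4, 54.7 and 61.6 with NRF2 siRNA. At these 3 large subunit genes the groups overlapped and both replicate 1 libraries were lowest in their group.

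The low-ranking small subunit genes differed in the overlap of the groups. RPS10, another gene mutated in Diamond-Blackfan anaemia, ranked at 50.7, 57.8 and 59.4 percentiles in the controls and at 23.4, 38.7 and 44.8 with NRF2 siRNA. RPS4X, on the X chromosome, ranked at 57.5, 47.0 and 64.7 in the controls and at 35.8, 30.0 and 44.8 with NRF2 siRNA. All 3 NRF2 siRNA libraries were below all 3 controls at both genes. Both replicate 1 libraries were again lowest in their group at RPS10 but not at RPS4X.

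The members differed as much in how steady they were. The median SD of the percentile over the 6 libraries was 8.48 for the 74 regions and 10.1 for all coding start regions. It was 6.31 within the controls and 7.48 within NRF2 siRNA, against 8.20 and 8.34 for all coding start regions. RPS26 (1.68), RPL23A (2.24) and RPS12 (2.89) had the smallest SDs, and all 3 ranked near the top of the lists, where a percentile can move less. RPS3A (22.2), RPL39L (20.2) and RPL14 (20.04) had the largest. RPS3A, a small subunit gene that hosts snoRNAs, ranked at 40.1, 68.01 and 75.7 percentiles in the controls and at 14.1, 49.7 and 59.2 with NRF2 siRNA.

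The 2 subunits had like ranks. The 29 RPS genes and RPSA called in all 6 libraries had a median of 74.7 percentiles and the 45 RPL genes a median of 71.7. By library, the RPS medians were 76.0, 75.1 and 84.5 in the controls and 71.8, 70.6 and 77.7 with NRF2 siRNA. The RPL medians were 72.5, 71.7 and 79.2 in the controls and 65.4, 70.5 and 72.9 with NRF2 siRNA. RPS was above RPL in each library, by amounts smaller than the range of medians between libraries. The 3 stalk genes RPLP0, RPLP1 and RPLP2, whose proteins recruit elongation factors, had means between 65.5 and 86.7. Of the 29 members with a snoRNA gene inside (58 snoRNA genes in all), the 28 called in all 6 libraries had a median of 73.3 percentiles and a median covered length of 2255 bp, against 68.6 and 1822 bp for the 46 members without. No test was run on these subsets.

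Width was taken as the bases covered by a library's peaks in a region. The mean over the 6 libraries had a median of 1928 bp for the ribosomal protein regions and 1833 bp for all coding start regions called in all 6. RPL23A was widest, with 8810, 9172 and 13032 bp in the controls and 8626, 10694 and 10925 bp with NRF2 siRNA. RPS16, whose region also holds the start of SUPT5H, covered 5815, 6172 and 8963 bp in the controls and 6095, 6844 and 9264 bp with NRF2 siRNA. RPL7, beside RDH10, covered between 4063 and 4434 bp in every library. The 3 widest members all share their region with the start of another coding gene, as do 25 of the 78. The median covered length was 2117 bp for those 25 and 1878 bp for the members called in all 6 libraries with no other coding start.

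The narrowest regions were those of RPL39L, RPL34 and RPL29. RPL34 covered 655, 614 and 934 bp in the controls and 685, 570 and 683 bp with NRF2 siRNA. RPL39L covered 701, 800 and 999 bp in the controls and 316, 293 and 974 bp with NRF2 siRNA. RPL29 covered 765, 698 and 849 bp in the controls and 939, 460 and 1223 bp with NRF2 siRNA. The RPL34 groups overlapped, as did those of RPL39L and RPL29. All 3 had mean percentiles below the members' lower quartile of 63.1, with 32.8 at RPL39L, 48.9 at RPL29 and 57.3 at RPL34. RPL34, the highest of them, ranked at 54.7, 51.2 and 69.5 percentiles in the controls and at 50.6, 48.5 and 69.3 with NRF2 siRNA.

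For the extent of peaks, the most frequent annotated transcript start of a gene in its region was used, or the lowest coordinate where starts tied. On the minus strand a tie took the most downstream start, so this start can differ from the canonical one. It lay inside a peak for 68, 74 and 78 genes in the controls and for 58, 71 and 77 with NRF2 siRNA. In those genes the peak extended a median of 822, 861 and 955 bp upstream and 931, 993 and 1286 bp downstream of the start in control replicates 1, 2 and 3. With NRF2 siRNA it extended 747, 828 and 895 bp upstream and 700, 834 and 1142 bp downstream. The downstream side was the longer for 57 of 78 genes in control replicate 3 and for 29 of 58 in NRF2 siRNA replicate 1.

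**Figure D3:**
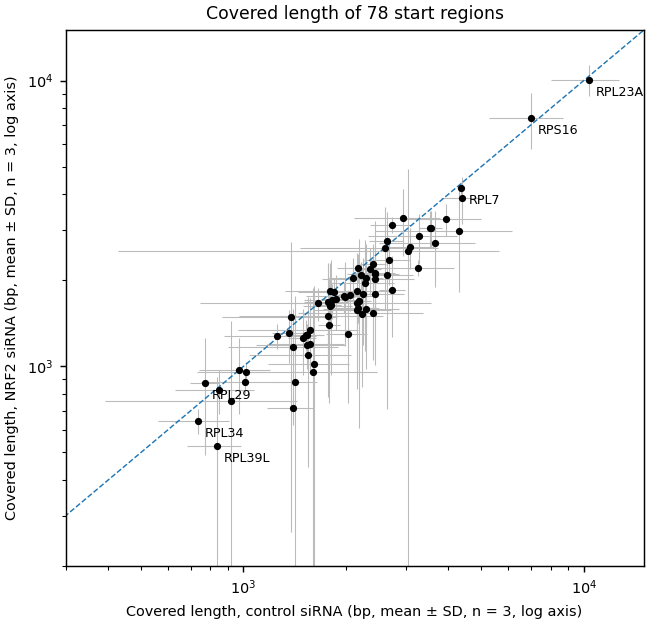
Covered length of 78 ribosomal protein start regions in control siRNA (x axis) and NRF2 siRNA (y axis), in bp on log axes, as means with bars of 1 SD (n = 3 libraries each, a library without a peak counted as 0). The dashed line marks equal lengths, and bars that reach below the axis are cut at its edge. RPL23A and RPS16 lie far above the rest, and RPL39L, RPL34 and RPL29 at the low end.

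To ask whether the loss of NRF2 moved these promoters, the rank of every region in a library was replaced by its normal score, the matching quantile of a standard normal distribution, and compared over 32673 regions called in at least 3 libraries. None of the 78 ribosomal protein regions passed an adjusted p of 0.05 in limma, with 0 lower and 0 higher. Of all regions tested, 3.39% were lower and 2.01% higher with NRF2 siRNA. Of the 9305 coding start regions tested, 90 were lower and 22 higher, so calls were rare at coding promoters too. At an unadjusted p under 0.05, 4 members were lower (5.13%) and 2 higher (2.56%), against 10.7% and 11.9% of all regions and 6.88% and 3% of coding start regions. The lowest limma adjusted p of a member was 0.129, at RPL4. The score change had a median of −0.09 over the members (50 negative, 28 positive), 0.02 over all regions tested and −0.06 over all coding start regions. For comparison, 6 of 16 NRF2 target genes, a list chosen for that role, were lower and 0 higher in the same fit. That count was 9 with the replicate block and 8 without NRF2 siRNA replicate 1. It was 2 without NRF2 siRNA replicate 3 or control replicate 1, and 0 without NRF2 siRNA replicate 2, control replicate 2 or control replicate 3.

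Without a test, the groups can also be set apart by overlap. All 3 NRF2 siRNA libraries lay below all 3 controls in percentile at 15 of the 78 members (19.2%), where 12.8% of all regions tested did so. They lay above at 3 members (RPL27, RPL10A and RPS26; 3.85%), where the share of all regions was 7.39%. Over coding start regions alone the shares were 10.1% below and 2.40% above. When every list was limited to its 23885 peaks of highest fold, 14 members lay below (17.9%) and 5 above (6.41%), beside 14.7% and 5.63% of coding start regions. Among the 74 members called everywhere, 31 were lower and 9 higher with NRF2 siRNA in all 3 same-numbered pairs. The shares of the 6592 coding start regions that did so were 33.9% and 11.2%.

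Library medians were lower with NRF2 siRNA in each pair. The median percentile of the 74 regions was 73.7, 73.9 and 81.4 in the controls (mean 76.3 ± 4.40, SD, n = 3) and 66.5, 70.6 and 74.0 with NRF2 siRNA (70.4 ± 3.73). The difference within pairs 1, 2 and 3 was −7.15, −3.31 and −7.40 percentiles, beside −4.58, −1.38 and −5.19 for all coding start regions. In the full lists the median over all coding promoters was thus lower in each pair too. Control replicate 3, with the highest median, held the highest percentile at 49 of the 74 members. NRF2 siRNA replicate 1, with the lowest median, held the lowest at 33. Without NRF2 siRNA replicate 1 the mean difference between the groups went from −5.96 to −3.28 percentiles, and without control replicate 3 to −3.41. With lists of equal length, 71 member regions were still called in all 6 libraries. Their medians were 70.7, 62.7 and 68.8 in the controls and 66.6, 57.3 and 62.6 with NRF2 siRNA, a mean difference of −5.27. The medians over all coding start regions at equal length were 63.79, 63.52 and 70.02 in the controls. With NRF2 siRNA they were 64.71, 61.44 and 63.96. At equal length the coding median was thus higher with NRF2 siRNA in pair 1 and lower in pairs 2 and 3. The members' median was lower in each pair. No test was run on this difference between the sets.

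**Figure D4:**
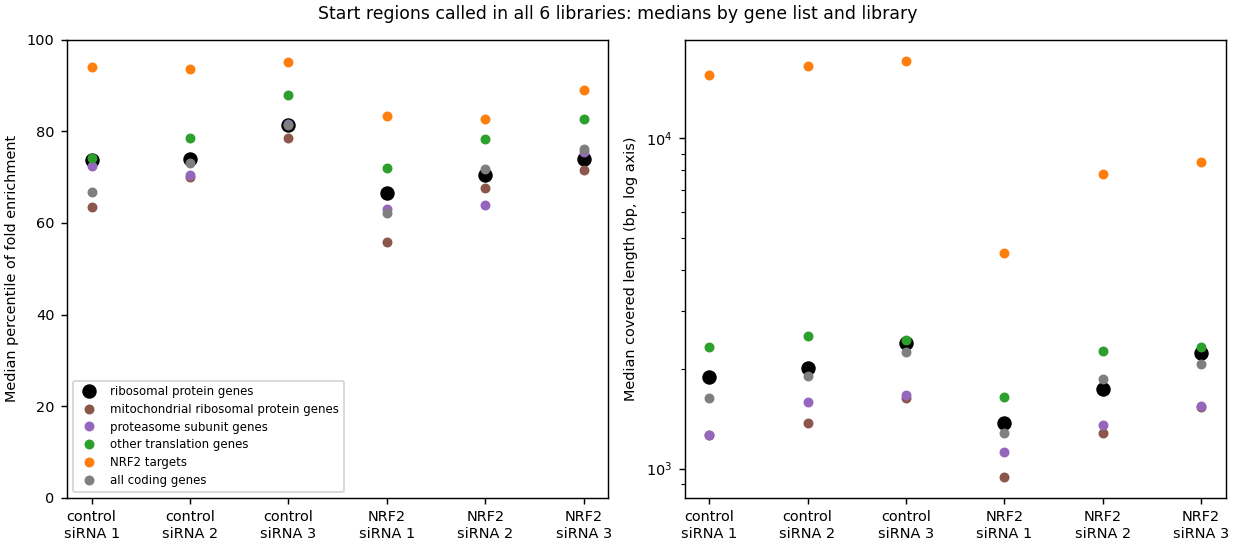
Median percentile of fold enrichment (left) and median covered length in bp on a log axis (right) for start regions called in all 6 libraries, with 1 point per gene list in each library. Ribosomal protein genes (large black points) lie near all coding genes (grey) in every library, at 66.5 to 81.4 percentiles, while NRF2 targets (orange) lie above them and are lower in the NRF2 siRNA libraries.

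RPL4, a core protein of the large subunit that lines the exit tunnel, had the largest difference downward in normal score. In mean percentile its difference was −6.28, and the largest downward was −21.15 at RPS20. It ranked at 96.3, 97.3 and 98.3 percentiles in the controls and at 88.8, 92.9 and 91.3 with NRF2 siRNA, with no overlap. The score change was −0.55 (SE 0.192), which did not pass the test (limma adjusted p = 0.129). The start of ZWILCH lies in the same region.

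The next largest differences downward in score were at small subunit genes. RPS20 ranked at 82.5, 78.5 and 86.4 percentiles in the controls and at 44.8, 60.2 and 79.1 with NRF2 siRNA, a score change of −0.50 (SE 0.214, limma adjusted p = 0.202). The RPS20 groups overlapped through NRF2 siRNA replicate 3. RPS27A, which encodes ubiquitin fused to a ribosomal protein, ranked at 92.2, 90.9 and 97.1 in the controls and at 78.1, 84.6 and 88.8 with NRF2 siRNA, a score change of −0.49 (SE 0.207, limma adjusted p = 0.205). The RPS27A groups did not overlap, and its region also holds the start of CLHC1.

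RPL27 had the largest difference upward. It ranked at 40.5, 18.4 and 51.4 percentiles in the controls and at 74.95, 57.6 and 64.4 with NRF2 siRNA, so that the lowest NRF2 siRNA library was above the highest control. The score change was 0.78 (SE 0.304), and the limma adjusted p was 0.169. In the limma fit with the replicate number as a block the adjusted p was 0.0405, the sole member called, where 5.72% of all regions were higher and 6.62% lower. Of the 9305 coding start regions tested, 70 were higher and 223 lower in that fit. In the other alternatives the adjusted p at RPL27 ran from 0.0989 to 0.413. The covered length at RPL27 did not follow the rank, with 1442, 1535 and 1993 bp in the controls and 1422, 1855 and 1706 bp with NRF2 siRNA.

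RPL30 and RPL10A came next by score change. RPL30 ranked at 42.5, 43.8 and 65.9 percentiles in the controls and at 42.5, 73.9 and 77.1 with NRF2 siRNA, a score change of 0.48 (SE 0.209, limma adjusted p = 0.217). Its groups overlapped, since the ranks in pair 1 were nearly equal. RPL10A, a protein of the stalk beside the exit site for transfer RNA, ranked at 46.2, 46.8 and 55.3 in the controls and at 73.5, 58.5 and 60.5 with NRF2 siRNA, a score change of 0.42 (SE 0.264, limma adjusted p = 0.388). The RPL10A groups did not overlap, and its peak in NRF2 siRNA replicate 1 covered only 368 bp.

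**Figure D5:**
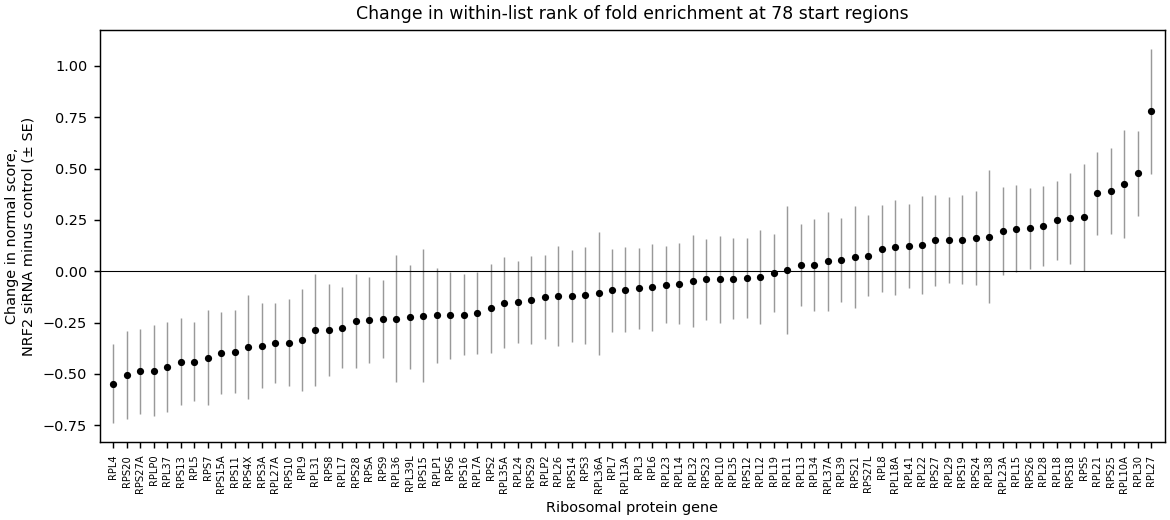
Change in the normal score of fold enrichment, NRF2 siRNA minus control, with bars of 1 SE from limma, for 78 ribosomal protein start regions in order of size. Of the 78 points 50 lie below 0 and 28 above, from −0.55 at RPL4 to 0.78 at RPL27.

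Free RPL5, RPL11 and RPL23 proteins are known to bind MDM2 and so stabilise p53 when ribosome assembly fails. RPL5 ranked at 75.02, 82.1 and 89.0 percentiles in the controls and at 53.4, 70.1 and 73.4 with NRF2 siRNA, with no overlap and a score change of −0.44 (SE 0.192, limma adjusted p = 0.215). RPL23 ranked at 60.9, 64.6 and 73.2 in the controls and at 47.3, 65.1 and 67.6 with NRF2 siRNA, with overlap and a change of −0.06 (SE 0.188, limma adjusted p = 0.882). The change at RPL11 was 0.00 (SE 0.312, limma adjusted p = 0.995), with NRF2 siRNA replicate 1, which had no peak there, given the tied lowest rank. At RPL5 all 3 NRF2 siRNA libraries thus lay below all 3 controls, as they did at 19.2% of the members and 10.1% of coding start regions. The groups overlapped at RPL23 and RPL11.

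The width comparison gave no call either. The limma fit of covered length called 0 members and 0 regions in all (0% lower and 0% higher). At an unadjusted p under 0.05 in that fit, 2472 of 32673 regions were lower and 2558 higher, with 0 of 78 members among them. Of the 9305 coding start regions tested, 284 were lower and 120 higher at that limit. The lowest adjusted p of a member was 0.423. The median covered length of the 74 members was 1890, 2012 and 2394 bp in the controls (2098 ± 263 bp, SD, n = 3) and 1370, 1748 and 2238 bp with NRF2 siRNA (1785 ± 435 bp). The difference within pairs 1, 2 and 3 was −519.5, −264.5 and −156 bp, beside −354, −48.5 and −179.5 bp for all coding start regions. NRF2 siRNA replicate 1 was the narrowest library at 48 members and control replicate 3 the widest at 45. Without NRF2 siRNA replicate 1 the difference between the groups went from −313 to −154 bp, and without control replicate 3 to −166 bp. Without NRF2 siRNA replicate 3 it was −540 bp.

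Replicate 1 of both groups differs from the rest by a flow cell identifier missing from its peak names and holds the sole siRNA 28 library. The siRNA term compares the NRF2 siRNA minus control difference of pair 1 with that of pairs 2 and 3, so a shift shared by both replicate 1 libraries does not enter it, but siRNA 28 and a response to the knockdown peculiar to this batch cannot be told apart. The term for siRNA 28 against siRNA 30 passed in limma at 0 members and 0 regions in all (0%), with 5040 regions and 4 members at an unadjusted p under 0.05. The lowest adjusted p of a member was 0.28. In replicates 2 and 3 alone, whose read totals lay close together, the difference in median percentile was −5.25 and that in covered length −264 bp, and 0 members were called in the limma fit.

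The ribosomal protein genes were set beside other genes in constant use. Of 39 proteasome subunit genes 89.7% were called in all 6 libraries, with a median of 70.0 percentiles and 1419 bp. The 78 mitochondrial ribosomal protein genes, whose products serve the separate ribosome of mitochondria, were called in all 6 in 71.8%, with a median of 64.8 percentiles and 1355 bp. The 20 other translation genes, among them elongation and initiation factors, were called in 90% with 77.6 percentiles and 2248 bp. The 16 NRF2 targets had 88.9 percentiles and 13831 bp, so their regions were several times as wide as those at ribosomal protein genes. Limma called 0 regions of the proteasome, mitochondrial ribosomal and other translation lists, with 1, 5 and 1 lower and 0, 2 and 0 higher at an unadjusted p under 0.05, a limit that 6.88% of coding start regions passed as lower and 3% as higher. With the replicate block, 1 proteasome region was lower and 0 of the other 2 lists were called. No test was run between the lists.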

How the data were processed

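H3K27ac ChIP-seq peak lists of 6 A549 libraries were used. The 2 input samples were not analysed here. Per the labels and the study's methods, the authors converted reads with bcl2fastq 2.15.0, trimmed 101-base single-end reads with cutadapt 1.15, aligned them to hg19 with Bowtie2 2.2.6, removed those of mapping quality under 20 with SAMtools, called broad peaks in each library with MACS2 2.1.0.20151222 and took out blacklisted peaks. Each deposited list gives a caller's score, a fold enrichment (a ratio over background), and the p-value and q-value on a −log10 scale. Which background served is not given in the sources used here. The score was not used. The study describes independent experiments.

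Peaks overlapping by 1 bp or more were merged into 49186 regions (Python 3.11.15, pandas 2.3.3). Chromosome names and ends were checked against GRCh37, and 136 peaks lay on other contigs. A region took each library's highest fold. Regions called in 3 or more libraries were compared by limma 3.58.1 (lmFit, eBayes, R 4.3.3) on normal scores of ranks, uncalled regions taking the tied lowest rank, with Benjamini-Hochberg adjustment over all regions. Ranks within a list cannot show a change shared by all regions. The limma step was tested on simulated data. Same-numbered libraries deviated together (r = 0.398, 0.199 and 0.363), so the numbers in the titles were taken as pairs. The main fit compared the groups without this pairing, and a replicate block was an alternative. Other alternatives were eBayes options, equal list lengths (23885 peaks), a q-value of at most 1e-05, a merge overlap of 200 bp, other region rules and leaving out libraries.

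Named genes were those past the threshold, without a region or not called everywhere, among those called in all 6 libraries the 5 highest and 5 lowest in mean percentile, the 3 widest and 3 narrowest, the 3 largest changes each way, the 3 largest and 3 smallest SDs, and RPL5, RPL11, RPL23, RPS19 and RPS26. The genes, lists and tests were chosen with earlier results of these data known. The result for 1 gene is not reported here.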

Additional observations from a re-analysis of the deposited data

How the results depend on the processing

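No ribosomal protein region was called in either direction, for fold enrichment or covered length, under any alternative except the replicate block, which called RPL27 higher (1 region, adjusted p = 0.0405) and changed no other member's call. Counts over all regions moved more. For fold enrichment, 1108 regions lower and 657 higher became 2164 and 1868 with the block, 1975 and 1719 in replicates 2 and 3 only, 451 and 263 at a q-value of at most 1e-05, and 369 and 341 among regions called in all 6 libraries. The higher count was 1175 with the trend and robust options and 1185 with equal list lengths. Leaving out 1 library gave 0 to 1716 lower and 0 to 882 higher, both 0 without control replicate 2. For covered length, 0 and 0 became 269 lower and 209 higher with trend and robust options, 790 and 705 with equal list lengths, and 1 lower among regions called in all 6. Leaving out 1 library gave 0 to 637 lower and 0 to 197 higher, above 0 only without NRF2 siRNA replicate 1. The siRNA term passed at 1652 regions with trend and robust options and 1118 among regions called in all 6. The cause was not tested. Ribosomal protein regions called in all 6 libraries went from 74 to 32 at the stricter q-value and to 78 without NRF2 siRNA replicate 1.

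Of 26 named regions, small score changes turned sign, none of them called. RPL23A became −0.296 by its longest peak, RPL34 −0.00276 in replicates 2 and 3 and −0.00286 among regions called in all 6, RPL36 0.135 in replicates 2 and 3 and 0.494 at the stricter q-value, RPS15 0.117 at the latter, and RPS12 0.0465 and RPS19 −0.0175 in replicates 2 and 3. Leaving out 1 library gave −0.114 to 0.0846 at RPL10, −0.258 to 0.308 at RPL11, −0.144 to 0.0125 at RPL14, −0.0703 to 0.185 at RPL34, −0.423 to 0.142 at RPL36, −0.105 to 0.0108 at RPS12 and −0.529 to 0.126 at RPS15. Read totals entered no fit. The part of depth in ranks and widths was addressed only through equal list lengths and replicates 2 and 3 alone. The overlap counts at equal list lengths and the NRF2 target counts without each library were added after the data were seen.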
